A study of Mus musculus with 9 samples.

Results

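Heat shock factor 1 and 9 cytosolic chaperones and co-chaperones were followed in mouse brown fat cells treated with AM80 or AM73. The genes were taken by symbol from the deposited comparison table (Hsf1, Hspa1a, Hspa1b, Hspa8, Hsp90aa1, Hsp90ab1, Hsph1, Dnajb1, Hspb1 and Bag3). All 10 were found, each with 1 transcript cluster, the set of probes that the array assigns to a gene, among 30860 genes measured.

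The cells came from C57BL/6 mice, grew in culture and were fully differentiated; the age of the mice is not given in the sources used here. One group received AM80 at 10 µM for 8 h, another AM73 at 10 µM for 8 h, and the reference cells received DMSO, the solvent. Each group has 3 whole-transcript arrays made from 100 ng of total RNA. The series title names the compounds as PPARGC1a1 activators (Ppargc1a encodes the coactivator PGC-1α), and their structures are not given in the labels. The labels call the replicates technical, so every p-value here measures only the spread between these arrays, and whether separate cultures lie behind them is not stated. Levels are the authors' normalised log2 values, on which a difference of 1 is a doubling. They are compared between groups for the same gene and not between genes.

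Cells meet unfolded protein with chaperones that bind exposed hydrophobic stretches and release them in cycles driven by ATP. In unstressed cells HSF1 is held inactive in complexes with HSP90 and HSP70. When damaged protein draws these chaperones away, HSF1 trimerises, binds heat shock elements (inverted repeats of the letters GAA) and switches on genes for HSP70, HSP40, HSP110, small heat shock proteins and BAG3. Brown fat cells are rich in mitochondria and make heat through uncoupled respiration.

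In AM80-treated cells the chaperone genes did not move as a block. Hsp90aa1, the inducible HSP90, was 2.01-fold lower than with DMSO, while the small heat shock protein gene Hspb1 rose 1.66-fold and Hsf1 rose 1.26-fold, both turning to -0.11 and -0.50 (log2) when arrays were scaled to the poly-A controls described below, where Hsp90aa1 stayed lower at -1.84. With that scaling all 10 members were below 0 in AM80 against DMSO and in AM80 against AM73. Of all 30860 genes it called 24198 lower against DMSO and 28175 lower against AM73. AM73 left no member past the test against DMSO. Of the 10 members, 3 passed an adjusted p of 0.05 in AM80 against DMSO, where 13.9% of all genes did: 2 were higher, against 6.9% of all genes, and 1 was lower, against 7.04%. In AM73 against DMSO 0 passed with limma, where 0.12% of all genes were called (0.104% higher and 0.0162% lower). There an unadjusted limma p under 0.05 was found for 0 of the 10 members and for 2363 of all 30860 genes. In AM80 against AM73, 2 passed, where 19.1% of all genes did: 1 was higher, against 9.92% of all genes, and 1 was lower, against 9.22%. These shares were not matched for level. The members lie between the 78.2 and 99.5 percentiles of mean level, and dim genes are among all genes. Without genes below the 40th percentile, 3 members and 4944 of the fewer genes left were called against DMSO, and 3 and 6468 against AM73.

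The arrays stood apart in one way that touches these results. The first principal component, holding 58.7% of the variance, placed the AM80 arrays at 31.2 to 74.7, DMSO replicate 3 at 2.5 and the other 5 arrays between -41.6 and -22.6. The poly-A control RNAs added to each sample read 5.20 to 5.85 on AM80 arrays, 4.08 to 4.68 on AM73 arrays and 4.51 to 4.83 on DMSO arrays (medians, log2). The brightest background probe sets read 5.69 to 6.12 on AM80 arrays, 4.52 to 5.48 on AM73 arrays and 5.21 to 5.95 on DMSO arrays, and the part of either control in the results was not tested. Scaling the arrays to these controls shifted the median of all genes by -0.84 in AM80 against DMSO, by 0.29 in AM73 against DMSO and by -1.13 in AM80 against AM73, so each change below is relative to the rest of the genes on the array. Each array's column name closes with a number that the labels do not explain, here called the array column; it is 5 on all AM80 arrays, AM73 replicate 2 and DMSO replicate 2, and 7 on the other 4. Above background were 12 of 12 brown fat cell, 5 of 6 white fat cell and 7 of 8 preadipocyte and fibroblast markers. So were 5 of 7 skeletal muscle, 2 of 6 macrophage and 3 of 6 endothelial markers. A mean level of 6 was reached by 8, 3, 2, 0, 0 and 0 of these, in the same order. The brown fat cell markers with a mean below 6 over the 9 arrays were Ucp1, Cidea, Prdm16 and Cox8b. On the DMSO arrays they averaged 3.97, 4.14, 4.45 and 2.96. In AM80 against DMSO the markers that passed were 4 of brown fat cells (2 higher, and 2 lower, among them Pparg at -0.91), 2 of white fat cells (1 higher, and 1 lower, Hoxc8 at -1.13) and 1 of skeletal muscle (Acta1 at 0.90), and their part in the results was not tested. In such bulk samples fewer cells of a type and less RNA per cell cannot be told apart.

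The promoters are shown first because heat shock elements are what HSF1 reads in this gene set. RefSeq windows on GRCm38.p6 (the build mm10 of the array), from 250 bases before to 50 after each start site, were at hand for 6 of the 10 members, in 8 windows. Both strands were searched for the 2-unit element GAANNTTC or TTCNNGAA and for the 3-unit element GAANNTTCNNGAA or TTCNNGAANNTTC, which contains the 2-unit one. The stretches below end at the base before the start site, run 5′ to 3′ on the gene's strand, and carry the 2-unit matches in capitals. Hspa1a lies at chr17:34972157-34972306 and Hspa1b at chr17:34959239-34959388, both on the minus strand, and Hspb1 lies at chr5:135887769-135887918 on the plus strand.
Hspa1a: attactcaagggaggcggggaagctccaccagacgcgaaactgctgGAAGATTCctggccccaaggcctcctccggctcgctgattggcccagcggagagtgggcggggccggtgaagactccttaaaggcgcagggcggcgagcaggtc
Hspa1b: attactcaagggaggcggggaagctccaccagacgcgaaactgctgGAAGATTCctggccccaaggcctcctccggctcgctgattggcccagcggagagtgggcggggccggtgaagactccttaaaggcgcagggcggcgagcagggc
Hspb1: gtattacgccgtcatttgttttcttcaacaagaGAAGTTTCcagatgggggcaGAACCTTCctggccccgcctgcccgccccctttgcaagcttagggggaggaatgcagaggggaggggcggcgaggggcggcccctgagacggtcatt

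The promoters of Hspa1a and Hspa1b shared 296 of 300 letters, with an unbroken run of 201, and each held 1 element from position -104 to -97, counting the first base of the gene as 0. The Hspb1 promoter held 2 elements, at -117 to -110 and at -97 to -90. In Hsph1, which has 2 annotated start sites, an element lies before both of them, shown here from chr5:149636350-149636381 on the minus strand because its partner after the start site was the one match to the 3-unit element among the members.
Hsph1: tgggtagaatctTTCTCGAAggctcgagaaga

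Bag3 held 1 element after its start site, at 42 to 49, and Dnajb1 held 0 in either of its 2 windows. Among all 32851 windows, 15.1% (4946) held the 2-unit element and 0.603% (198) the 3-unit element. A match to these letters is a description and not a site of binding.

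**Figure D1:**
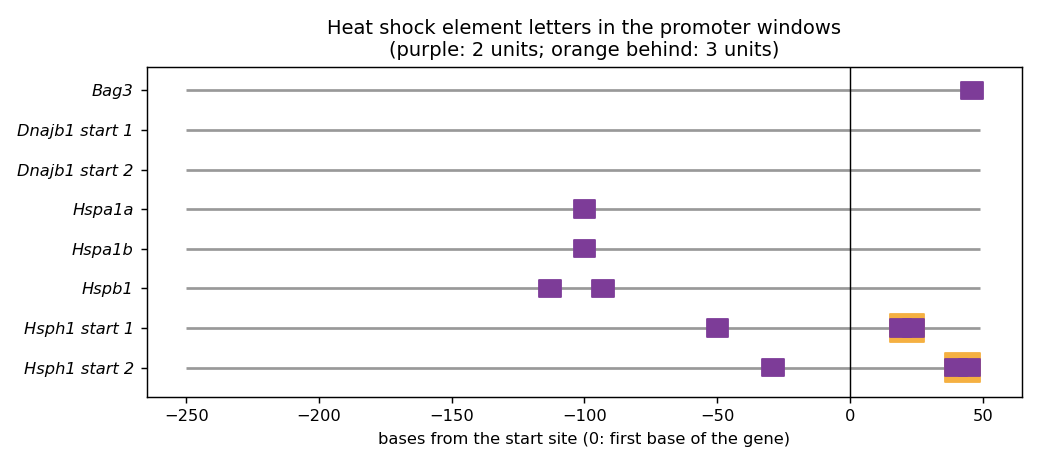
Matches to the heat shock element letters in 8 promoter windows of 6 members, by distance in bases from the start site, with 2-unit matches in purple and 3-unit matches in orange behind them. Hspa1a and Hspa1b have 1 match each at the same distance, Hspb1 has 2, Dnajb1 has 0, and only the Hsph1 windows hold the 3-unit form.

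Hsf1 encodes the transcription factor itself. Its cluster of 26 probes lies at chromosome 15, 76477435 to 76500972 on the plus strand (mm10). It read 6.47, 6.62 and 6.40 on the AM80 arrays, 6.21, 6.25 and 6.25 on the AM73 arrays and 6.20, 6.17 and 6.11 on the DMSO arrays. All AM80 arrays lay above all others, and the AM73 arrays lay just above the DMSO arrays. AM80 exceeded DMSO by 0.34 ± 0.10 (SE, 95% interval 0.12 to 0.56, limma adjusted p = 0.0495), which is close to the threshold. The call was lost when any array other than AM80 replicate 3 was left out, with an adjusted p of 0.0641 to 0.149. It was also lost with the array column as a block (0.33, adjusted p = 0.193) and within column 5 alone (0.33, adjusted p = 0.417). AM80 exceeded AM73 by 0.26 (0.04 to 0.48, adjusted p = 0.103), and AM73 differed from DMSO by 0.08 (-0.14 to 0.30, adjusted p = 0.87). The level of HSF1 mRNA is not a measure of HSF1 activity, which is set largely on the protein.

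**Figure D2:**
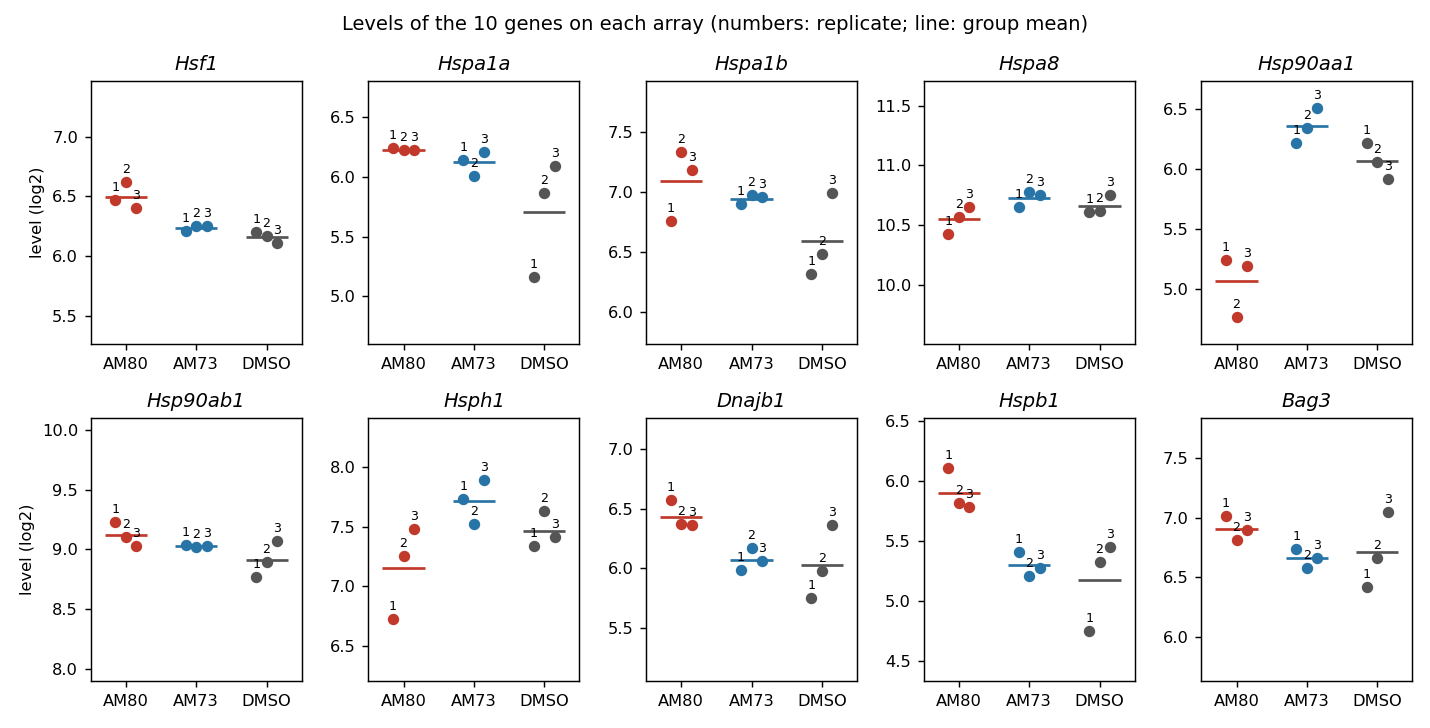
Normalised log2 level of each of the 10 genes on every array, with AM80, AM73 and DMSO from left to right, numbered by replicate, and a line at each group mean, all panels spanning the same height. Hsp90aa1 is low on all 3 AM80 arrays, Hspb1 and Hsf1 are high there as deposited but not after poly-A scaling, and DMSO replicates 1 and 3 lie far apart for Hspa1a, Hspa1b, Dnajb1, Hspb1 and Bag3.

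Hspa1a and Hspa1b, adjacent genes on chromosome 17, encode the stress-inducible HSP70 proteins, which are nearly identical. The Hspa1a cluster of 15 probes lies at 34969199 to 34972156 and the Hspa1b cluster of 10 probes at 34956429 to 34959238, both on the minus strand (mm10). The annotation marks both clusters as unique in probe sequence, and whether the 2 genes share signal was not tested. Hspa1a read 6.24, 6.22 and 6.22 on the AM80 arrays, 6.14, 6.01 and 6.21 on the AM73 arrays and 5.16, 5.86 and 6.09 on the DMSO arrays. Hspa1b read 6.76, 7.34 and 7.19 on the AM80 arrays, 6.90, 6.98 and 6.96 on the AM73 arrays and 6.32, 6.48 and 6.99 on the DMSO arrays. In both genes DMSO replicate 3 was close to the treated arrays and DMSO replicate 1 was the lowest of the 9 arrays.

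Neither HSP70 gene passed the test against DMSO. Hspa1a differed by 0.52 with AM80 (95% interval 0.07 to 0.98, limma adjusted p = 0.133) and by 0.42 with AM73 (-0.04 to 0.87, adjusted p = 0.675). For Hspa1b the differences were 0.50 with AM80 (0.07 to 0.93, adjusted p = 0.13) and 0.35 with AM73 (-0.08 to 0.78, adjusted p = 0.704). The AM80 arrays did not overlap the DMSO arrays for Hspa1a and did for Hspa1b. Leaving out DMSO replicate 3 brought both past the threshold, Hspa1a at 0.72 (adjusted p = 0.0362) and Hspa1b at 0.70 (adjusted p = 0.0269). Leaving out DMSO replicate 1 in turn took Hspa1a to 0.25. Poly-A scaling turned Hspa1a to -0.32 and Hspa1b to -0.34 in AM80 against DMSO. Between the compounds Hspa1a differed by 0.11 (-0.35 to 0.56, adjusted p = 0.783) and Hspa1b by 0.15 (-0.28 to 0.58, adjusted p = 0.666).

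Hspa8 encodes HSC70, the constitutive HSP70 of unstressed cells, and its cluster of 30 probes lies at chromosome 9, 40800984 to 40805200 on the plus strand. It read 10.43, 10.57 and 10.65 on the AM80 arrays, 10.65, 10.78 and 10.75 on the AM73 arrays and 10.61, 10.62 and 10.75 on the DMSO arrays. The 3 groups overlapped. The differences were -0.11 in AM80 against DMSO (95% interval -0.34 to 0.12, limma adjusted p = 0.612), 0.07 in AM73 against DMSO (-0.17 to 0.30, adjusted p = 0.899) and -0.18 in AM80 against AM73 (-0.41 to 0.06, adjusted p = 0.303). With poly-A scaling Hspa8 was called lower in AM80 against DMSO (-0.95, limma adjusted p = 0.00446), as were 24198 of all 30860 genes.

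Of the 2 cytosolic HSP90 genes, Hsp90aa1 passed the test with AM80 and Hsp90ab1 did not; the difference between the genes was not tested. Hsp90aa1 encodes HSP90α, the inducible form, which folds kinases and steroid receptors and holds HSF1 inactive. Its cluster of 23 probes spans chromosome 12, 110690605 to 110702728 on the minus strand, and is wider than the RefSeq gene (110691036 to 110696395). The level was 5.24, 4.76 and 5.19 on the AM80 arrays, 6.22, 6.34 and 6.51 on the AM73 arrays and 6.22, 6.06 and 5.92 on the DMSO arrays. Every AM80 array lay well below every other array.

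Hsp90aa1 fell by 1.00 ± 0.15 in AM80 against DMSO (SE, 95% interval -1.34 to -0.66, limma adjusted p = 0.00375), a 2.01-fold lower level. Between the compounds it was 1.29 ± 0.15 lower with AM80 (difference -1.29, interval -1.63 to -0.95, 2.45-fold, adjusted p = 0.000864). AM73 and DMSO differed by 0.29 (-0.05 to 0.63, adjusted p = 0.695). Leaving out each array in turn gave -1.09 to -0.85 for AM80 against DMSO, with the adjusted p at most 0.022. The array column as a block gave -0.99 (adjusted p = 0.0343), and column 5 alone, with 1 DMSO and 1 AM73 array, gave -0.997 (adjusted p = 0.33). For AM80 against AM73 the column block gave -1.28 (adjusted p = 0.00996) and column 5 alone -1.28 (adjusted p = 0.224). Adding the brightest background probe sets as a covariate made the difference between the compounds -1.10 (adjusted p = 0.0859).

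Hsp90ab1 encodes HSP90β, the constitutive form, from a cluster of 15 probes at chromosome 17, 45567775 to 45573271 on the minus strand. It read 9.23, 9.10 and 9.03 on the AM80 arrays, 9.04, 9.02 and 9.03 on the AM73 arrays and 8.77, 8.89 and 9.07 on the DMSO arrays. DMSO replicate 3 lay among the treated arrays. The differences were 0.21 in AM80 against DMSO (95% interval -0.04 to 0.46, limma adjusted p = 0.288), 0.12 in AM73 against DMSO (-0.13 to 0.37, adjusted p = 0.809) and 0.09 in AM80 against AM73 (-0.16 to 0.34, adjusted p = 0.649). With poly-A scaling Hsp90ab1 was called lower in AM80 against DMSO (-0.63, limma adjusted p = 0.0365), as were 24198 of all 30860 genes.

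**Figure D3:**
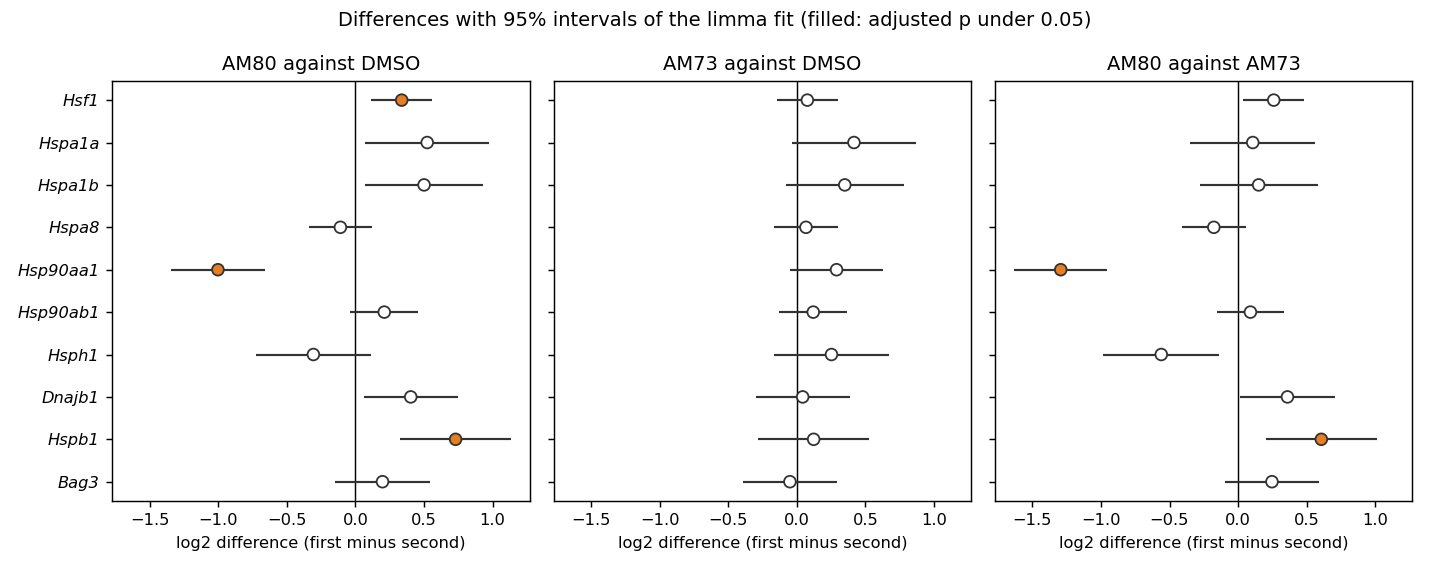
Log2 difference of each member in AM80 against DMSO, AM73 against DMSO and AM80 against AM73, with the 95% interval of the limma fit; filled points passed an adjusted p of 0.05. Hsp90aa1 is the lowest point of both outer panels, Hspb1 stands at 0.73 and 0.61 there (-0.11 and -0.52 with poly-A scaling), and no point is filled in the middle panel.

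Hsph1 encodes HSP105, an HSP110 that exchanges the nucleotide of HSP70 and helps to dissolve aggregates, from 17 probes at chromosome 5, 149614287 to 149636376 on the minus strand. It read 6.73, 7.25 and 7.48 on the AM80 arrays, 7.73, 7.52 and 7.89 on the AM73 arrays and 7.34, 7.63 and 7.41 on the DMSO arrays. The AM80 arrays spread widely and lay below the AM73 arrays without overlap, yet overlapped the DMSO arrays. The difference was -0.31 in AM80 against DMSO (95% interval -0.73 to 0.12, limma adjusted p = 0.382) and 0.25 in AM73 against DMSO (-0.17 to 0.68, adjusted p = 0.772). Between the compounds it was -0.56 (-0.98 to -0.14, adjusted p = 0.0682). That value passed the threshold when AM80 replicate 3 was left out (adjusted p = 0.0229). With poly-A scaling Hsph1 was called lower in AM80 against DMSO (-1.15, limma adjusted p = 0.00105), as were 24198 of all 30860 genes.

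Dnajb1 encodes an HSP40, a J-domain protein that hands substrates to HSP70 and triggers its ATP hydrolysis. Its 24 probes lie at chromosome 8, 83608175 to 83611903 on the plus strand. The level was 6.57, 6.37 and 6.36 on the AM80 arrays, 5.99, 6.17 and 6.06 on the AM73 arrays and 5.75, 5.98 and 6.36 on the DMSO arrays. The AM80 arrays lay above the AM73 arrays, and DMSO replicate 3 equalled the lowest AM80 array. Dnajb1 differed by 0.40 in AM80 against DMSO (95% interval 0.06 to 0.75, limma adjusted p = 0.127), by 0.57 without DMSO replicate 3 (adjusted p = 0.0203) and by -0.44 with poly-A scaling (adjusted p = 0.142). AM73 against DMSO gave 0.04 (-0.30 to 0.39, adjusted p = 0.962), and AM80 against AM73 gave 0.36 (0.02 to 0.70, adjusted p = 0.147).

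Hspb1 encodes HSP25, the mouse form of human HSP27, a small heat shock protein that holds unfolded proteins without using ATP and binds actin filaments. Its 22 probes lie at chromosome 5, 135887919 to 135889896 on the plus strand, just after the promoter with 2 elements shown above. It read 6.11, 5.82 and 5.78 on the AM80 arrays, 5.41, 5.21 and 5.27 on the AM73 arrays and 4.75, 5.32 and 5.45 on the DMSO arrays. The AM80 arrays were above every AM73 and DMSO array.

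Hspb1 rose by 0.73 ± 0.18 in AM80 against DMSO (SE, 95% interval 0.33 to 1.13, limma adjusted p = 0.025) and by 0.61 ± 0.18 in AM80 against AM73 (0.20 to 1.01, 1.52-fold, adjusted p = 0.0413). AM73 against DMSO gave 0.12 (-0.28 to 0.53, adjusted p = 0.89). The call against DMSO was lost without DMSO replicate 1 (0.52, adjusted p = 0.0676), DMSO replicate 2 (0.80, adjusted p = 0.0537), AM80 replicate 1 (0.63, adjusted p = 0.0912) or AM80 replicate 2 (0.77, adjusted p = 0.0613). With the array column as a block it was 0.70 (adjusted p = 0.125), and within column 5 alone 0.58 (adjusted p = 0.357). The call between the compounds was lost when DMSO replicate 2, any AM73 array or any AM80 array was left out (adjusted p 0.0514 to 0.136). It was also lost with the column block (0.58, adjusted p = 0.162).

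Bag3 encodes a co-chaperone that exchanges the nucleotide of HSP70 and carries its clients, together with small heat shock proteins, to autophagy. Its 27 probes lie at chromosome 7, 128523583 to 128547179 on the plus strand. The level was 7.01, 6.81 and 6.90 on the AM80 arrays, 6.74, 6.58 and 6.66 on the AM73 arrays and 6.42, 6.66 and 7.05 on the DMSO arrays. The DMSO arrays alone covered the range of all others. The differences were 0.20 in AM80 against DMSO (95% interval -0.15 to 0.54, limma adjusted p = 0.52), -0.05 in AM73 against DMSO (-0.39 to 0.29, adjusted p = 0.956) and 0.25 in AM80 against AM73 (-0.10 to 0.59, adjusted p = 0.335). With poly-A scaling Bag3 was called lower in AM80 against DMSO (-0.64, limma adjusted p = 0.0333), as were 24198 of all 30860 genes.

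Counted together, the arrays of the 2 groups did not overlap for 4 members in AM80 against DMSO (3 higher and 1 lower), where 25.5% of all genes did not (14.9% higher and 10.6% lower). In AM73 against DMSO this held for 1 member, Hsf1, against 12.6% of all genes (5.71% higher and 6.87% lower). In AM80 against AM73 it held for 7 members (5 higher and 2 lower), against 31.5% of all genes (18.9% higher and 12.7% lower). These shares were not matched for level either. The median difference over the 10 members was 0.27 in AM80 against DMSO (all genes 0.04), 0.12 in AM73 against DMSO (all genes -0.02) and 0.13 in AM80 against AM73 (all genes 0.07). The 3 comparisons share arrays in pairs, so their values are not independent.

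The SD was largest on the DMSO arrays for 6 of the 10 members and on the AM80 arrays for 4. DMSO replicate 1 was the lowest of the DMSO arrays for 8 of the 10 members and replicate 3 the highest for 7, and both held for 7. Among all genes these orders held for 31.9%, 36.1% and 18.2%. The median SD of the members was 0.12 on AM80 arrays, 0.09 on AM73 arrays and 0.23 on DMSO arrays, beside 0.17, 0.14 and 0.15 over all genes in the same order of groups. Hsf1 and Hsp90aa1 went the other way, highest on DMSO replicate 1 and lowest on replicate 3. DMSO replicate 3 also lay nearest the AM80 arrays on the first principal component.

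How many members passed in AM80 against DMSO changed with the array left out. Without DMSO replicate 3 there were 5 (Hspa1a, Hspa1b, Dnajb1 and Hspb1 higher, Hsp90aa1 lower). Without DMSO replicate 1 or 2, or AM80 replicate 1 or 2, there was 1, Hsp90aa1. Of all 30860 genes 4568 were called without DMSO replicate 3, and 1740 and 2180 without DMSO replicates 1 and 2. Without AM80 replicates 1 and 2 these calls numbered 2492 and 2482. Hsp90aa1 was the only member called in each of the 9 fits that left out an array. Deviations from the group means over the 9 arrays moved together for some members and not for others. Pearson's r was below 0 for 23 of the 45 pairs of members, including all 9 pairs with Hsf1 (-0.001 with Hspa1b) and all 9 with Hsp90aa1. For every pair among Hspa1a, Hsp90ab1, Dnajb1, Hspb1 and Bag3 it was 0.77 to 0.92. The share of such pairs over all genes was not computed. This is a description with no test, since the genes share the same hybridisations. Among the pairs it was 0.92 between Dnajb1 and Hsp90ab1, 0.89 between Hspa1a and Hspb1, 0.88 between Hspb1 and Bag3, 0.60 between Hspa1a and Hspa1b, -0.43 between Hsp90ab1 and Hsph1, -0.55 between Hsf1 and Bag3 and -0.68 between Hspa1b and Hsp90aa1.

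**Figure D4:**
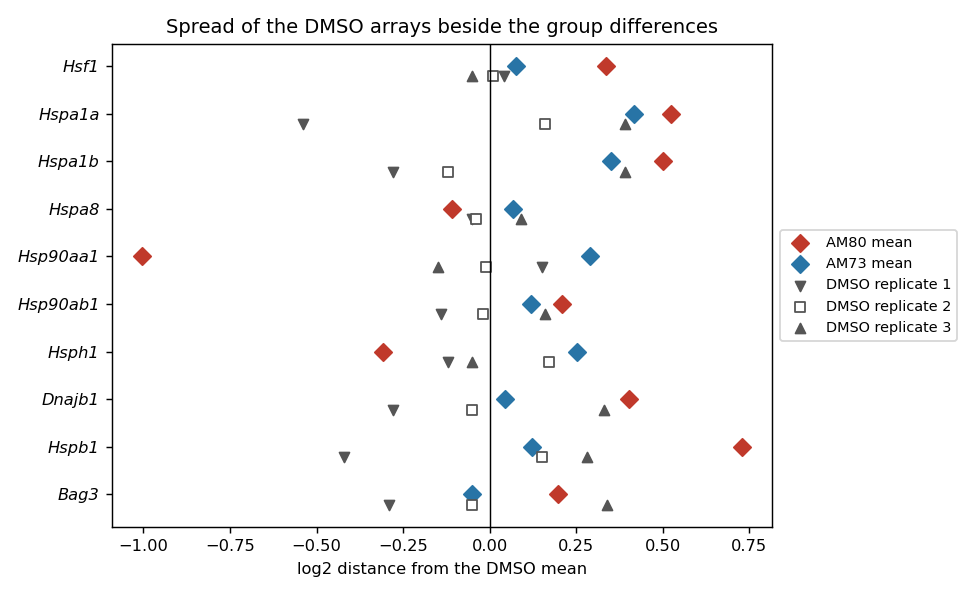
Log2 distance of the AM80 mean, the AM73 mean and each DMSO array from the DMSO mean, for the 10 members. DMSO replicate 3 lies to the right and replicate 1 to the left for 7 members, and the AM80 mean falls outside the DMSO arrays by the widest margin for Hsp90aa1.

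The genes most like the 3 members with the smallest p of limma's moderated F-test over the groups were taken by Pearson's r over the 9 arrays among 5031 genes with a mean level of at least 6. For Hsp90aa1 these were Jade3 (r = 0.99), Wapl (0.989) and Elovl6 (0.987). Elovl6, a fatty acid elongase, averaged 6.42 on AM80 arrays, 8.13 on AM73 arrays and 7.75 on DMSO arrays. For Hspb1 they were Alas1 (0.986), Dcakd (0.985) and Agpat1 (0.981). For Hsf1 they were Snord45b (0.969), Arhgef18 (0.967) and Snora61 (0.966). These values are a description, since the genes share the same arrays and groups.

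Outside the 10 members, 82 further chaperone genes in 10 lists were measured. In AM80 against DMSO 23 of the 82 passed (10 higher and 13 lower), which is 28% beside 13.9% of all genes. In AM80 against AM73 41 passed (22 higher and 19 lower), or 50% beside 19.1% of all genes. These shares were not matched for level, and dim genes are among all genes. Without genes below the 40th percentile of mean level, 4944 of the fewer genes left were called against DMSO, beside 4302 before. Against AM73 6468 were called, beside 5907. The share called among the genes left was therefore above 13.9% and 19.1%, so those figures are low for genes of such levels. Of the list genes 27 and 43 were then called. Leaving out each array gave 8 (without DMSO replicate 1) to 34 (without AM80 replicate 3) against DMSO and 25 (without AM73 replicate 3) to 46 (without AM80 replicate 3) against AM73. With poly-A scaling 0 were called higher and 54 lower against DMSO, and 0 higher and 66 lower against AM73. Of all 30860 genes 24198 and 28175 were then called lower. The array column as a block left 8 and 18, and the background covariate 12 and 0. In AM73 against DMSO 0 passed with limma, and 8 of the 82 had an unadjusted p under 0.05, beside 2363 of all 30860 genes. The median difference of the 82 genes was 0.10 in AM80 against DMSO, -0.01 in AM73 against DMSO and 0.13 in AM80 against AM73.

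Of 15 HSP90 co-chaperone genes, 6 rose and 3 fell in AM80 against DMSO, beside 6.9% and 7.04% of all genes, and with poly-A scaling 5 of the 6 turned below 0, among them Cdc37 (-0.10) and Ppp5c (-0.30). Chordc1, which encodes a CHORD-domain partner of HSP90, read 5.46, 5.84 and 5.92 on the AM80 arrays, 7.49, 7.42 and 7.32 on the AM73 arrays and 7.48, 7.44 and 7.32 on the DMSO arrays. It fell by 1.67 (limma adjusted p = 0.00191), 3.19-fold. Ppid, the cyclophilin that docks on HSP90, fell by 1.02 (adjusted p = 0.00362). Cdc37, which loads kinases onto HSP90, read 8.42, 8.22 and 8.13 on the AM80 arrays, 7.53, 7.45 and 7.42 on the AM73 arrays and 7.49, 7.43 and 7.62 on the DMSO arrays. It rose by 0.74 (adjusted p = 0.00362), and Ppp5c, the phosphatase that binds HSP90, rose by 0.54 (adjusted p = 0.0116).

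Of 4 other heat shock factor genes and Hsbp1, which encodes a protein that binds HSF1, 1 of 5 passed in AM80 against DMSO, beside 13.9% of all genes. Hsf2, the partner with which HSF1 can form mixed trimers, read 5.26, 4.97 and 5.61 on the AM80 arrays, 6.84, 6.69 and 6.43 on the AM73 arrays and 6.65, 6.50 and 6.43 on the DMSO arrays. It fell by 1.25 (limma adjusted p = 0.00287) and stood at -2.09 with poly-A scaling. Hsf1 was 0.34 higher as deposited, a call lost in most fits that left out an array, and stood at -0.50 with that scaling. In AM80 against AM73 Hsf2 was lower by a difference of -1.37 and Hsf4 was higher by 0.57, or -0.56 with poly-A scaling.

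Of 8 other HSP70 and HSP110 genes, 3 fell in AM80 against DMSO and 0 rose. Beside this list and those that follow, 7.04% of all genes were called lower and 6.9% higher. The differences of the list reached from -1.25 to 0.40. An unadjusted limma p under 0.05 was found for 6 of the 8 and for 7757 of all 30860 genes. Hspa13 fell by 1.25 (limma adjusted p = 0.00608), the HSP110 gene Hspa4l by 1.02 (adjusted p = 0.0135) and Hspa4, another HSP110, by 0.64 (adjusted p = 0.0291). Of 11 J-domain genes 2 fell, Dnajc2 by 0.69 (adjusted p = 0.0223) and Dnaja1 by 0.61 (adjusted p = 0.0252). Of 7 nucleotide exchange genes 1 rose, Bag1, by 0.56 (adjusted p = 0.0149), which poly-A scaling turned to -0.28.

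Of 8 other small heat shock protein genes, 1 rose in AM80 against DMSO, beside 6.9% of all genes. Cryab, which encodes αB-crystallin, read 6.20, 6.03 and 6.14 on the AM80 arrays, 5.24, 5.37 and 5.21 on the AM73 arrays and 5.31, 5.31 and 5.19 on the DMSO arrays. It rose by 0.85 (limma adjusted p = 0.00217), beside the rise of Hspb1, and stood at 0.01 with poly-A scaling. Hspb8, the partner of BAG3, was 0.85 higher in AM80 than in AM73 (adjusted p = 0.00329), which poly-A scaling turned to -0.28.

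Among chaperones of other compartments 2 of 7 fell in AM80 against DMSO. Beside this list and those that follow, 7.04% of all genes were called lower and 6.9% higher. Hsp90b1, the HSP90 of the endoplasmic reticulum, fell by 1.01 (limma adjusted p = 0.0043), close to the fall of Hsp90aa1, and the mitochondrial chaperonin gene Hspd1 fell by 0.44 (adjusted p = 0.0309). Of 6 prefoldin genes Vbp1 fell by 0.66 (adjusted p = 0.023) and Pfdn5 rose by 0.56 (adjusted p = 0.0478), which poly-A scaling turned to -0.28. Of 8 genes of the cytosolic chaperonin 0 passed with limma. Of these 8, 5 had an unadjusted limma p under 0.05, beside 7757 of all 30860 genes. Of 7 other heat-inducible genes Rgs2, a regulator of G protein signalling, fell by 1.05 (adjusted p = 0.00397), and Hmox1, heme oxygenase 1, rose by 0.54 (adjusted p = 0.0146; -0.30 with poly-A scaling).

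Of the 18 genes named from the lists for AM80 against DMSO, 8 were called in all 9 fits that left out an array and with the array column as a block (Chordc1, Cdc37, Ppid, Hsf2, Hspa13, Cryab, Hsp90b1 and Rgs2). The call was lost with the column block and in some of the 9 fits for Ppp5c, Hspa4, Hspa4l, Dnajc2, Dnaja1, Bag1, Hspd1, Vbp1, Pfdn5 and Hmox1. Of the 9 fits Hspa4 was called in 4 and Pfdn5 in 2. Between AM80 and AM73 33 genes were named by the same rule. Of these, 15 were called in the 9 fits and with the column block, and 0 with the background probe covariate added.

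**Figure D5:**
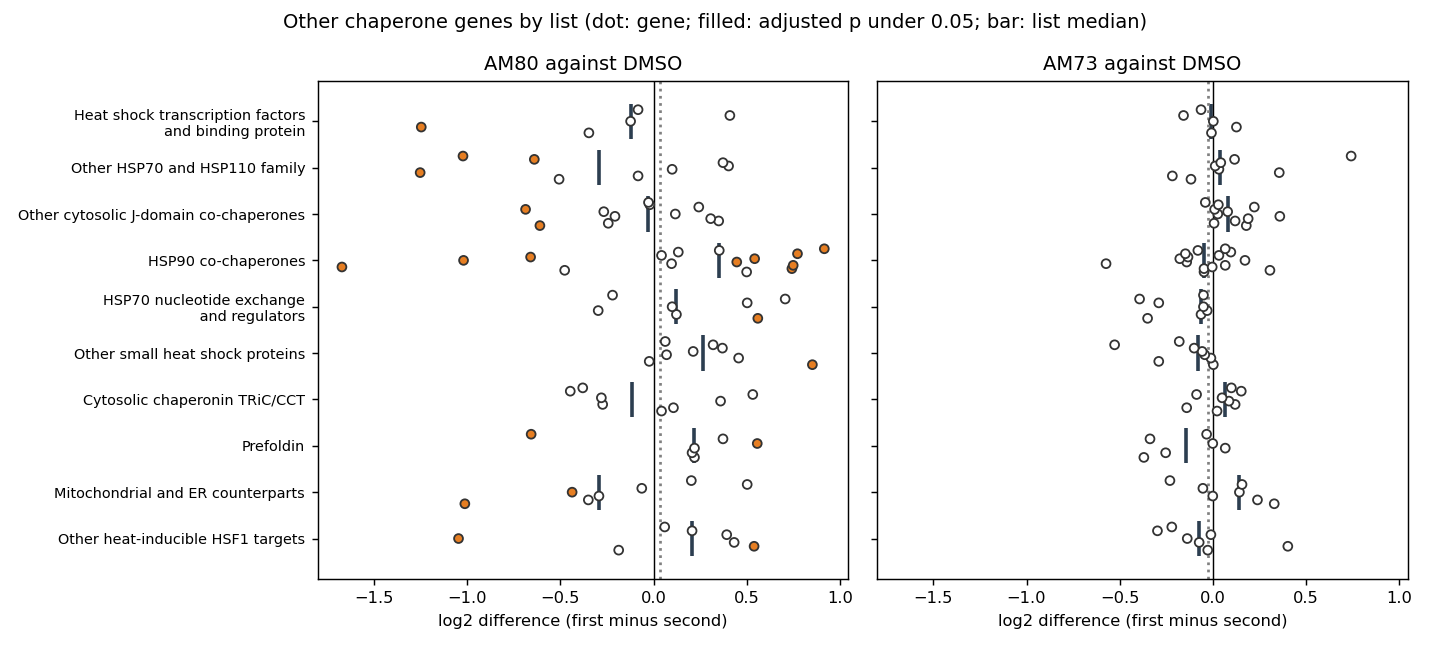
Log2 difference of 82 further chaperone genes in 10 lists, in AM80 against DMSO and in AM73 against DMSO; dots are genes, filled where the adjusted p was under 0.05, bars are list medians and the dotted line is the median of all genes. With AM80 the HSP90 co-chaperone genes reach from -1.67 to 0.92, and with AM73 no dot is filled.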

How the data were processed

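The 9 arrays (3 each of AM80, AM73 and DMSO) were used. The deposited log2 values came, per the file headers, from RMA with quantile normalisation in Expression Console 1.41, annotated with NetAffx build 35 on mm10. The 2 deposited tables hold the same values (largest difference 0). Of 41345 features 33793 were gene features and 32202 had a symbol, of which 25099 were matched by Entrez identifier and 1913 renamed. The cluster with the highest mean was kept per symbol, leaving 30860 genes.

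Differences were fitted with limma 3.58.1 (lmFit, eBayes) under R 4.3.3 over the 9 arrays together, with 6 residual and 3.75 prior degrees of freedom. Tests are two-sided, Benjamini-Hochberg adjusted over all genes, with a threshold of 0.05, and intervals are 95% intervals. The fit was tested on simulated data. The number of arrays limits the precision. All 10 members exceeded the median of the 23 antigenomic background probe sets (2.07 to 2.32) on every array and the 40th percentile of mean level (2.51). The members and the gene lists were chosen with earlier results of these data known. One gene of the lists is not reported here and is in no list count. From each list the called genes are named, at most 4 per comparison, by smallest adjusted p. The single cell type markers, Ucp1 and Ppargc1a were chosen for naming after their values were seen. Alternatives covered dim genes, normalisation, centring, scaling, blocks, a background covariate, the arrays in the fit, moderation, array weights and leaving out each array. The authors' own averages, folds and p-values were not used.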

Additional observations from a re-analysis of the deposited data

How the results depend on the processing

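Of the 10 members, the number called was 3 in AM80 against DMSO, 0 in AM73 against DMSO and 2 in AM80 against AM73. Leaving out each array gave 1 to 5, 0 to 0 and 1 to 2. Over all genes the calls numbered 4302, 37 and 5907, and leaving out each array gave 1740 to 5226, 0 to 37 and 4164 to 6453. In AM80 against DMSO the members called were 1 with the replicate block, 1 with the array column as a block, 1 with the background covariate, 1 with only the groups compared, 5 (all lower) with poly-A scaling and 0 within column 5 alone. In AM80 against AM73 they were 1 with the replicate block, 1 with the column block, 0 with the covariate, 9 (all lower) with poly-A scaling and 0 within column 5 alone. In AM73 against DMSO they were 0 under every alternative run. Over all genes AM80 against DMSO had 1440 calls with the column block, 2403 with the covariate, 2086 with only the groups compared, 24222 (24 higher and 24198 lower) with poly-A scaling and 0 within column 5 (4256 unadjusted). AM80 against AM73 had 3513, 0 with the covariate (4572 unadjusted), 28182 with poly-A scaling (7 higher and 28175 lower) and 0 within column 5 (5446 unadjusted). Centring gave 2209 higher and 3215 lower calls there, against 3061 and 2846. AM73 against DMSO had 18 with the column block, 11 with the covariate, 2 with only the groups compared, 124 with poly-A scaling, 107 with array weights, and 0 within column 5 (1772 unadjusted) and 0 within column 7 (1804 unadjusted). Deviations from the group means correlated, across groups, from -0.298 to 0.068 between same-numbered arrays and from -0.094 to 0.246 between differently numbered ones. With 3 arrays a group these values cannot show whether the replicate numbers pair the arrays. With the replicate block the calls over all genes were 2999, 6 and 5063, and of the members only Hsp90aa1 was called. Poly-A scaling turned the sign, in AM80 against DMSO, of Hsf1 (-0.50), Hspb1 (-0.11), Hspa1a (-0.32), Hspa1b (-0.34), Dnajb1 (-0.44), Hsp90ab1 (-0.63), Bag3 (-0.64), Bag1 (-0.28), Cdc37 (-0.10), Hmox1 (-0.30), Pfdn5 (-0.28) and Ppp5c (-0.30). In AM80 against AM73 it turned Hsf1 (-0.87), Hspa1a (-1.02), Hspa1b (-0.98), Hsp90ab1 (-1.04), Dnajb1 (-0.77), Hspb1 (-0.52), Bag3 (-0.88), Bag1 (-0.22), Bag6 (-0.33), Cct7 (-0.51), Cdc37 (-0.34), Cryab (-0.28), Hsf4 (-0.56), Hspb8 (-0.28), Hspbp1 (-0.027), Pfdn1 (-0.54), Pfdn2 (-0.67), Pfdn6 (-0.42), Ppp5c (-0.41), Serpinh1 (-0.72), Sqstm1 (-0.62) and Trap1 (-0.69). Hsp90aa1, Hspa8 and Hsph1 kept their direction, Hsp90aa1 at -1.84 against DMSO and -2.42 against AM73. The 5 members called lower against DMSO with this scaling were Hspa8, Hsp90aa1, Hsp90ab1, Hsph1 and Bag3. The fits within a column, and those of the list genes, were chosen after seeing the data. Within column 5 the lone DMSO and AM73 arrays are assumed to vary like the others. No member had a second cluster, so that alternative gave no value. The cause of these changes was not tested.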

Other observations

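Ucp1, the uncoupling protein of brown fat, read 5.99, 5.70 and 6.01 on the AM80 arrays, 6.61, 6.04 and 5.74 on the AM73 arrays and 3.54, 3.80 and 4.56 on the DMSO arrays. Every array of either compound was above every DMSO array. Ppargc1a, whose isoforms the array cluster does not separate here, read 5.14, 5.23 and 5.83 on the AM80 arrays, 6.82, 6.80 and 6.82 on the AM73 arrays and 7.31, 7.19 and 6.67 on the DMSO arrays. It was 3.15-fold lower in AM80 against DMSO (limma adjusted p = 0.00237), and differed by -0.24 in AM73 against DMSO (95% interval -0.71 to 0.22, adjusted p = 0.796). Poly-A scaling kept both directions in AM80 against DMSO, Ucp1 at 1.09 and Ppargc1a at -2.50.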
